A study of Mus musculus with 8 samples.

Results

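The genes described here are 9 of the hypoxia response: Egln1, Egln3, Hif1a, Vegfa, Slc2a1, Pfkfb3, Bnip3, Ddit4 and Kdm3a. They were chosen by symbol, as sensors, a subunit and targets of the oxygen-sensing pathway, and all 9 were measured, out of 16896 genes in the study. Newly made RNA was measured by TT-seq, in which cells take up 4-thiouridine during a short pulse (here 500 nM for 5 min) and the labelled RNA is isolated and sequenced. The cells were ES-E14TG2a (E14), a male mouse embryonic stem cell line, untreated apart from the label, and nothing in the labels describes low oxygen. From wildtype cells there were 3 libraries, each a biological replicate. The 5 mutant lines, with 1 library each, carried alanine in place of lysine at residue 122 of histone H3.3, which the genes H3f3a and H3f3b encode. The single-targeted group held H3f3a A/A H3f3b WT/WT cells as 1 line and, as the other, H3f3a WT/WT H3f3b A/A cells, with 2 mutant alleles each. The dual-targeted group held 2 clones of H3f3a A/A H3f3b WT/A and 1 line of H3f3a WT/A H3f3b A/A, with 3 mutant alleles each. That last line is called the H3f3a WT/A line below, and the other 2 the clones. A mutant group is thus a set of lines, and the spread within it is a spread between lines of different genotype or clone. Which medium these libraries came from is not said: the labels list one with LIF alone and another that adds a pair of kinase inhibitors.

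In cells with enough oxygen, prolyl hydroxylases of the EGLN family mark the alpha subunits of hypoxia-inducible factor (HIF), and the VHL ubiquitin ligase then has them degraded. When oxygen is short, the alpha subunit persists, pairs with ARNT and binds a short element with the core letters ACGTG or GCGTG near genes for glucose uptake, glycolysis, vessel growth and mitophagy. Egln1 and Egln3 belong to the targets too, so the pathway feeds back on itself. HIF-1alpha is controlled mainly as a protein, and RNA measurements such as these do not read its amount or activity.

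The letters of that core were looked for, on both strands, in the 250 bases before each transcript start that RefSeq lists for the 9 genes (build GRCm38.p6). Promoters of 4 genes are shown because these genes moved in different directions below; capitals mark ACGTG or GCGTG, or their reverse complements CACGT and CACGC. Egln3 lies at chr12:54203875-54204124 (minus strand), Vegfa at chr17:46032378-46032627 (minus), Bnip3 at chr7:138909507-138909756 (minus) and Slc2a1 at chr4:119108495-119108740 (plus). The Slc2a1 sequence is shown as 246 bases, without the last 4 before the RefSeq start, to keep the stretch that GENCODE annotates as transcribed short.
Egln3: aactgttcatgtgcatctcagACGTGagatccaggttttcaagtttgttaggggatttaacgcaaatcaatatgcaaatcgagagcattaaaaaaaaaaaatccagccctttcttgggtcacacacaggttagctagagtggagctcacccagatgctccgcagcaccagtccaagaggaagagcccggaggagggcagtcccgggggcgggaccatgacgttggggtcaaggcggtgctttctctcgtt
Vegfa: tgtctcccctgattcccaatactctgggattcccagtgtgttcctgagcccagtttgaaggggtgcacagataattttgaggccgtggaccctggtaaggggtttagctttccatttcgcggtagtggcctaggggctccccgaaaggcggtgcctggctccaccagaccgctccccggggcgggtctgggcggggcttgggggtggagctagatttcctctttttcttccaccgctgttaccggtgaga
Bnip3: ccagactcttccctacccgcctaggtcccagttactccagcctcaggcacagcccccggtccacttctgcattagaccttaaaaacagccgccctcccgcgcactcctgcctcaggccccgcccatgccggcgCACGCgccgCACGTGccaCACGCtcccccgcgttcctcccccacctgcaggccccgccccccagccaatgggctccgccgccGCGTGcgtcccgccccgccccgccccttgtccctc
Slc2a1: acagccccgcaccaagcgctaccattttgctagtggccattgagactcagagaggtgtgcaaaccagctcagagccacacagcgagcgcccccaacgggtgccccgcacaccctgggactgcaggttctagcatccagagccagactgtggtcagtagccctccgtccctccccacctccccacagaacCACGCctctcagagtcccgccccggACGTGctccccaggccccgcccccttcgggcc
The Egln3 window held ACGTG once, 229 to 225 bases before the start. The Bnip3 window held 5 matches between 117 and 31 bases before the start, 2 of which overlap as the palindrome CACGTG, which is also the letters of an E-box. Slc2a1 had ACGTG 36 to 32 bases and a reverse-strand GCGTG 61 to 57 bases before its RefSeq start, which lies 4 bases past the end of the sequence shown. The upstream Vegfa window held neither core, and the window of the second RefSeq start of Vegfa had 1 of each. That second window, at chr17:46025164-46025413, lies inside the annotated gene and is counted in the shares that follow. The Hif1a window, window 2 of Pfkfb3 and windows 2 and 3 of Kdm3a also lie inside their annotated genes and are counted. Over all 13 windows of the 9 genes, 9 held ACGTG (69.2%), against 21.4% of 13690 windows of genes in the dual-targeted and wildtype table. Either core stood in 76.9% of the member windows and in 55.4% of those other windows, a smaller gap. Member windows were also richer in G and C, with a median of 66.4% against 60.0%. A match says only that the letters are there, and these genes were picked as known targets.

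Values came from 4 tables of the authors' own comparisons, each with a mean normalized count, a log2 fold change with its standard error (SE), a p-value and an adjusted p. No values per library were used, so depth is unknown, and whether single libraries overlap cannot be said. Group means were therefore rebuilt by subtraction from the 4 tables' mean counts. They carry no error and serve as levels only. The authors' adjusted p (DESeq2) had to be under 0.05 for a gene to count as called. It sets a difference only against the spread between these libraries, which are replicates in wildtype and separate lines in the mutant groups. The fold changes are read as shrunken towards 0, so rebuilt ratios generally lie further from 0, and sizes in different tables are not strictly comparable. All 8 embryonic stem cell markers were measured, at mean counts between 812 and 4211 in the authors' deposited table of dual-targeted and wildtype cells, while Col1a1, Col1a2, Col3a1 and Acta2 of the 6 fibroblast markers had no row there, and Pdgfra and Thy1 were at mean counts of 13.9 and 25.2. Of the 8 stem cell markers, 5 were called higher in dual-targeted lines and none lower, where 10.8% of all genes were higher and 10.1% lower. Of 4 primitive endoderm markers 3 had a row, at mean counts from 7.29 to 13.9, and 1 of them, Sox7, was called higher at 1.57 ± 1.11 (adjusted p = 0.0319) in the authors' deposited table. Of 3 trophectoderm markers Eomes alone had a row (mean count 36.2) and was not called. Whether these markers have a part in the results was not tested. In bulk RNA, fewer cells of a type and less RNA per cell cannot be told apart.

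The first question was what differed from wildtype when 3 H3.3 alleles were mutant. Of the 9 genes, 6 were called: Egln1, Egln3 and Vegfa were lower and Slc2a1, Pfkfb3 and Kdm3a were higher. Among all genes, 20.9% were called in this comparison, 10.8% higher and 10.1% lower. The median log2 fold change of the 9 genes was -0.06, against 0.01 over all genes, since the members split in direction. In single-targeted lines against the same wildtype libraries, 2 of the 9 were called, Egln3 and Bnip3, both lower, where 2.96% of all genes were called 1.49% higher and 1.47% lower. In dual-targeted against single-targeted lines, 4 of the 9 were called, with Slc2a1, Pfkfb3 and Kdm3a higher and Vegfa lower, where 7.06% of all genes were called (4.37% higher, 2.69% lower). The comparisons with wildtype share the wildtype libraries, and so are not independent of each other.

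**Figure D1:**
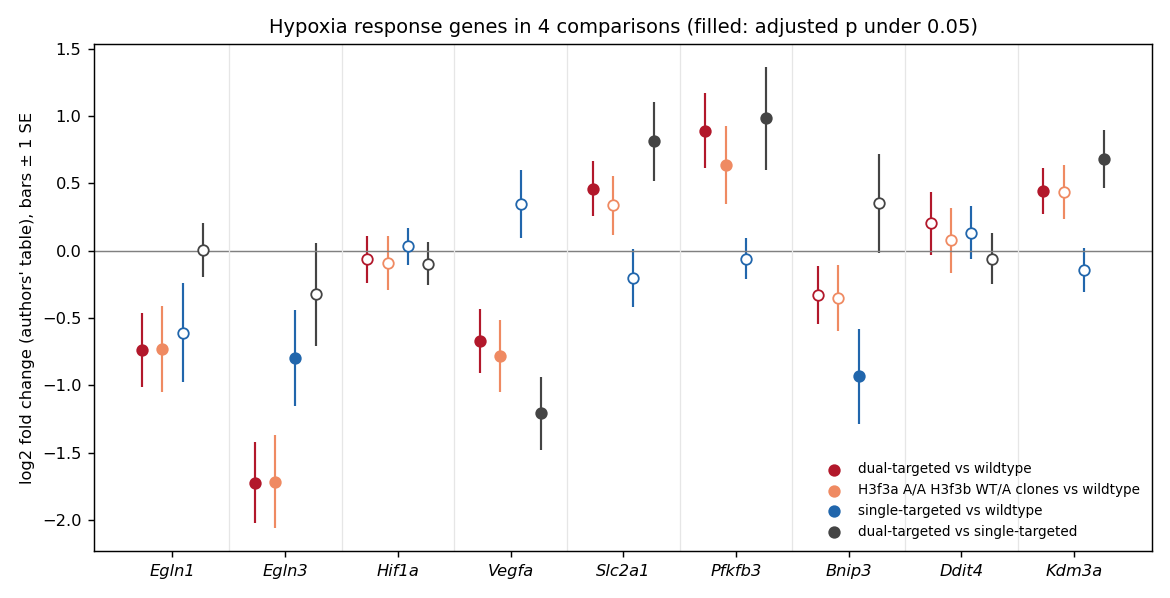
Log2 fold change of each of the 9 genes (vertical axis, bars ± 1 SE) in the 4 comparisons (colours), from the authors' deposited tables; filled points have an adjusted p under 0.05. Egln3 reached the lowest value, -1.72 in dual-targeted lines, Pfkfb3 the highest at 0.98 in dual-targeted against single-targeted lines, and Hif1a stayed between -0.10 and 0.03.

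The sensors came first. Egln3 encodes PHD3, a prolyl hydroxylase that is itself strongly induced by HIF in many cell types (chromosome 12, 54178981 to 54203860, GRCm38, 24.9 kb). Its rebuilt mean was 131 normalized counts in wildtype, 64.9 in single-targeted lines, 35.9 in the 2 clones and 38.4 in the H3f3a WT/A line. Every mutant group thus sat below wildtype, and both dual-targeted genotypes lay close together at 27.4% and 29.3% of its level. In the authors' deposited table the log2 fold change was -1.72 ± 0.30 (SE) in dual-targeted lines (adjusted p = 7.02e-08), which ranked 143 by size among 1659 genes called lower. In the authors' deposited table of single-targeted lines it was -0.80 ± 0.35 (adjusted p = 0.0378). The step from single-targeted to dual-targeted lines was not called, at -0.33 ± 0.38 in the authors' deposited table (adjusted p = 0.222), and its 95% interval from the SE ran from -1.08 to 0.43. The mean count in that comparison was 45.4 and the unadjusted p 0.0524 (DESeq2), while the rebuilt log2 ratio, without error, was -0.82. No gene of chromosome 12 with a mean count of 50 or more (426 genes) had a lower fold change than Egln3 in dual-targeted lines.

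Egln1 encodes PHD2, the main oxygen sensor among the hydroxylases (chromosome 8, 124908587 to 124949324, 40.7 kb). Rebuilt means were 163 normalized counts in wildtype, 88.7 in single-targeted lines, 86.1 in the clones and 92.6 in the H3f3a WT/A line. All mutant groups stood between 53.0% and 56.9% of wildtype, with no order by the number of mutant alleles. It was lower in dual-targeted lines at -0.74 ± 0.27 in the authors' deposited table (adjusted p = 0.0104). The value of -0.61 ± 0.37 for single-targeted lines in the authors' deposited table missed the threshold (adjusted p = 0.0923). Dual-targeted against single-targeted lines gave 0.00 ± 0.20 in the authors' deposited table (adjusted p = 0.991), with an interval from -0.38 to 0.39.

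Chromosome 8 as a whole was low in the mutant lines, and Egln1 has to be read beside it. The median log2 fold change of its 625 genes of mean count 50 or more was -0.32 in dual-targeted lines, and 36.8% of these genes were called lower. In single-targeted lines the median of chromosome 8 was -0.21 over 648 genes, and 12.8% of these were called lower, against 1.47% of all genes. With the chromosome median taken off, Egln1 stood at -0.41 in dual-targeted and -0.40 in single-targeted lines, and 20.0% of the chromosome's genes lay below it in the former. Of its 6 protein-coding neighbours within 100 kb, 4 were called lower in single-targeted lines and 1 in dual-targeted lines. Gnpat, the one called in both, an enzyme of ether lipid synthesis, was at -0.79 ± 0.18 in dual-targeted lines by the authors' deposited table (adjusted p = 3.88e-05). Sprtn, a protease of DNA repair that lies 2.4 kb away, was at -0.17 ± 0.20 in dual-targeted lines by the authors' deposited table (adjusted p = 0.518), while its value against wildtype with 2 mutant alleles was -0.83 ± 0.26 (adjusted p = 0.00522). For the other 8 genes the chromosome median lay between -0.01 and 0.06 in dual-targeted lines.

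**Figure D2:**
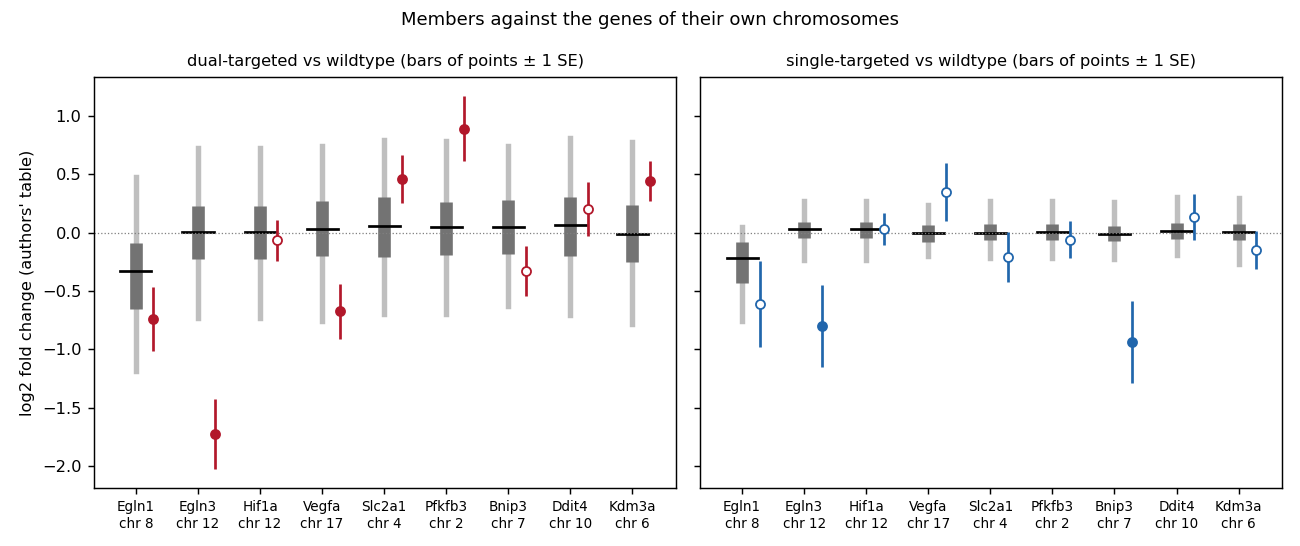
Log2 fold change of each member (points, bars ± 1 SE, filled where the adjusted p is under 0.05) beside the genes of its chromosome with a mean count of 50 or more (black line: median; dark bar: 25th to 75th percentile; light bar: 5th to 95th percentile), for dual-targeted (left) and single-targeted lines (right) against wildtype. The chromosome 8 bar behind Egln1 is centred at -0.32 on the left and -0.21 on the right, and Egln3 lies below the light bar of chromosome 12 in both.

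Hif1a, the gene of the HIF-1alpha subunit (chromosome 12, 73901375 to 73947530), was called in none of the 4 comparisons. Rebuilt means were 801 normalized counts in wildtype, 844 in single-targeted lines, 731 in the clones and 795 in the H3f3a WT/A line. In the authors' deposited table it was at -0.06 ± 0.18 in dual-targeted lines (adjusted p = 0.819), with an interval from -0.41 to 0.28. For single-targeted lines it was, by the authors' deposited table, 0.03 ± 0.14 (adjusted p = 0.931), with an interval from -0.24 to 0.30. An antisense gene, Gm15283, overlaps Hif1a at a mean count of 20.8 in the authors' deposited table, and whether strand was used in counting is unknown.

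Vegfa, the growth factor for blood vessels (chromosome 17, 46016993 to 46032369, 15.4 kb), lay on opposite sides of wildtype in the mutant groups. Rebuilt means were 522 normalized counts in wildtype, 760 in single-targeted lines, 275 in the clones and 357 in the H3f3a WT/A line. Single-targeted lines were thus the highest, at 146% of wildtype, and the clones the lowest, at 52.7%. Vegfa fell in dual-targeted lines by 0.67 ± 0.24 on the log2 scale in the authors' deposited table (adjusted p = 0.00838). The single-targeted value of 0.35 ± 0.25 in the authors' deposited table was not called (adjusted p = 0.23). Between the mutant groups the difference was the most significant of the 9 genes, at -1.21 ± 0.27 in the authors' deposited table (adjusted p = 2.37e-04), and ranked 58 by size among 354 genes called lower.

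Slc2a1 and Pfkfb3 act on sugar. Slc2a1 encodes GLUT1, a glucose transporter of the cell surface (chromosome 4, 119108711 to 119137983). Its rebuilt means were 1173 normalized counts in wildtype, 876 in single-targeted lines, 1552 in the clones and 1974 in the H3f3a WT/A line. Dual-targeted genotypes were above wildtype and single-targeted lines below it. The rise in dual-targeted lines was close to the threshold, at 0.46 ± 0.20 in the authors' deposited table (adjusted p = 0.0488), and in the 2 clones without the H3f3a WT/A line the authors' deposited table gave 0.34 ± 0.22 (adjusted p = 0.21). Single-targeted lines stood at -0.21 ± 0.22 in the authors' deposited table (adjusted p = 0.445). The difference between dual-targeted and single-targeted lines was larger, at 0.81 ± 0.29 in the authors' deposited table (adjusted p = 0.014). A microRNA gene, Mir1957a, lies within Slc2a1 on the same strand.

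Pfkfb3 encodes an enzyme that makes fructose 2,6-bisphosphate, the activator of phosphofructokinase (chromosome 2, 11471433 to 11554077, the longest of the 9 genes at 82.6 kb). Rebuilt means were 193 normalized counts in wildtype, 171 in single-targeted lines, 329 in the clones and 505 in the H3f3a WT/A line. Both dual-targeted genotypes were higher, at 171% and 262% of wildtype, with the single line above the clones. The authors' deposited table gave 0.89 ± 0.28 in dual-targeted lines (adjusted p = 0.00246) and 0.64 ± 0.29 in the clones alone (adjusted p = 0.0417). Single-targeted lines were at -0.06 ± 0.16 in the authors' deposited table (adjusted p = 0.851), and dual-targeted lines were above them by 0.98 ± 0.38 (adjusted p = 0.0163). The trend of fold change with gene length stood at -0.11 at its length in dual-targeted lines, and with that trend taken out the value for Pfkfb3 was 1.00.

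Bnip3, a mitochondrial protein that promotes mitophagy (chromosome 7, 138890836 to 138909519), had its lowest level in single-targeted lines. Rebuilt means were 315 normalized counts in wildtype, 143 in single-targeted lines and 226 in the clones, while the H3f3a WT/A line stood at 79.4% of wildtype. It was lower in single-targeted lines at -0.93 ± 0.35 in the authors' deposited table (adjusted p = 0.0163), which ranked 85 by size among 221 genes called lower. In dual-targeted lines it was at -0.33 ± 0.21 in the authors' deposited table (adjusted p = 0.193). The difference between the mutant groups was not called, at 0.35 ± 0.37 in the authors' deposited table (adjusted p = 0.203), with an interval from -0.37 to 1.07. Its unadjusted p was 0.0437 (DESeq2), and the rebuilt log2 ratio, without error, was 0.71.

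Kdm3a encodes a demethylase of histone H3 lysine 9 (chromosome 6, 71588972 to 71632990). Rebuilt means were 870.2 normalized counts in wildtype, 718 in single-targeted lines, 1223 in the clones and 1217 in the H3f3a WT/A line. Both dual-targeted genotypes had like levels, at 141% and 139.8% of wildtype. Kdm3a rose in dual-targeted lines by 0.44 ± 0.17 in the authors' deposited table (adjusted p = 0.026), and in the 2 clones without the third line 0.43 ± 0.20 in the authors' deposited table missed the threshold (adjusted p = 0.0686). Against single-targeted lines it was higher by 0.68 ± 0.22 in the authors' deposited table (adjusted p = 0.00849). Single-targeted lines were at -0.15 ± 0.16 against wildtype in the authors' deposited table (adjusted p = 0.615).

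Ddit4 encodes REDD1, an inhibitor of the growth kinase complex mTORC1 (chromosome 10, 59949669 to 59951834, the shortest of the 9 genes at 2.2 kb). Rebuilt means were 163 normalized counts in wildtype, 219 in single-targeted lines, 175 in the clones and 245 in the H3f3a WT/A line. Like Hif1a, it was called in none of the 4 comparisons (DESeq2) in the authors' deposited tables, where its values ran from -0.06 to 0.20 and the adjusted p from 0.495 to 0.838. The interval in dual-targeted lines against wildtype was -0.26 to 0.66.

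**Figure D3:**
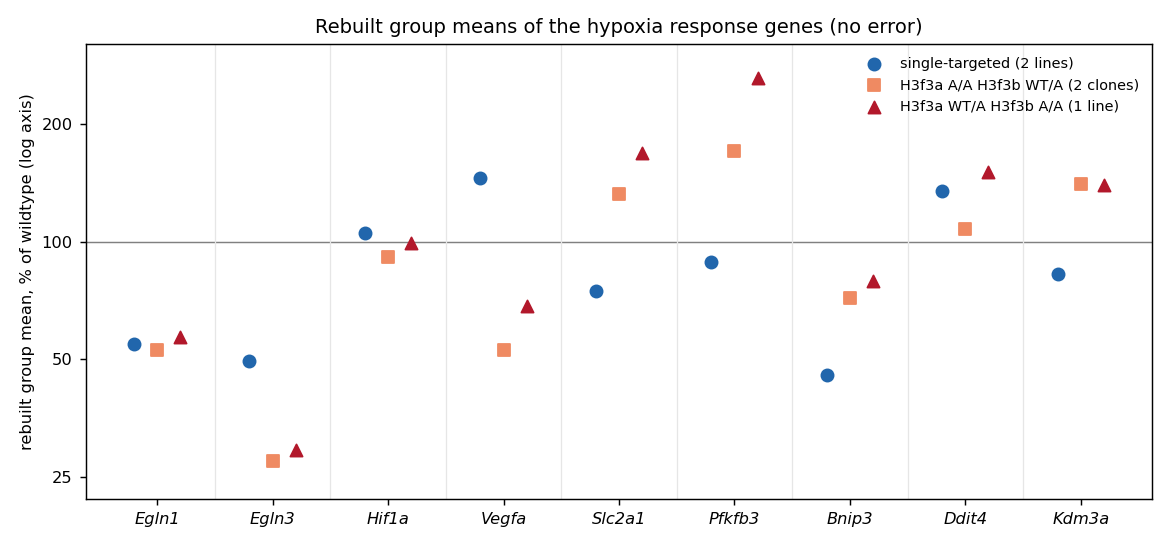
Rebuilt group mean of each gene as a percentage of wildtype (log axis) in single-targeted lines, the 2 clones and the H3f3a WT/A line; the points carry no error. All mutant groups lie between 53.0% and 56.9% for Egln1, Vegfa has the single-targeted point at 146% and the clones at 52.7%, and Slc2a1, Pfkfb3 and Kdm3a have the single-targeted point below 100% and both dual-targeted points above it.

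For no member did the clones and the H3f3a WT/A line lie on opposite sides of wildtype. They were furthest apart for Pfkfb3 (log2 difference 0.62), Ddit4 (0.49) and Vegfa (0.38), with the single line higher each time, and these differences were not tested. Because the level of that line comes from subtraction of 2 tables, it moves with the scale that joins them more than the other levels do. The clones against wildtype were called for 4 of the 9 genes in the authors' deposited table, with Egln1, Egln3 and Vegfa lower and Pfkfb3 higher, where 19.3% of all genes were called (9.05% higher, 10.3% lower). Among genes with rebuilt ratios to wildtype closest to those of Egln3, over the 3 mutant levels, were Dnah8, Hexa and Uap1l1, at Euclidean distances of 0.10 to 0.18 on the log2 scale. For Vegfa the nearest were Gm44434, Wipi1 and Gm43260 (0.07 to 0.14), and for Pfkfb3 Ccdc85a, Eno1b and Ndufs8 (0.12 to 0.22), out of 11099 genes.

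Other genes of oxygen sensing were read from a list. Of all genes, 10.8% were called higher and 10.1% lower in dual-targeted lines, and 1.49% and 1.47% in single-targeted lines. Between the mutant groups these shares were 4.37% and 2.69%. Of 7 tested genes for sensing and HIF degradation, Elob and Eloc, the elongins of the VHL complex, were higher in dual-targeted lines, at 0.74 ± 0.21 and 0.51 ± 0.19 in the authors' deposited table (adjusted p = 0.00157 and 0.0159). None of the 7 was lower there, and in single-targeted lines none was called (DESeq2), with 0 genes at an unadjusted p under 0.05 in either case. Egln2, the remaining hydroxylase of the family, was at 0.12 ± 0.19 in dual-targeted lines by the authors' deposited table (adjusted p = 0.672), and Vhl at 0.18 ± 0.21 (adjusted p = 0.512). Of 7 subunits and coactivators, 3 were lower in dual-targeted lines and none higher (0 higher at an unadjusted p under 0.05, DESeq2). These were Arnt, the partner of the alpha subunits (-0.52 ± 0.18, adjusted p = 0.00972), its paralog Arnt2 (-0.92 ± 0.30, adjusted p = 0.00296) and Hif3a (-0.92 ± 0.24, adjusted p = 4.52e-04) in the authors' deposited table. Arnt and Hif3a were also lower in dual-targeted than in single-targeted lines, at -0.55 ± 0.20 and -0.76 ± 0.30 in the authors' deposited table (adjusted p = 0.0209 and 0.0215). In single-targeted lines Arnt2 alone of the 7 was called, at -0.86 ± 0.40 in the authors' deposited table (adjusted p = 0.0416).

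Of 12 tested metabolic targets of HIF, 3 rose and 1 fell in dual-targeted lines against wildtype, with a median log2 fold change of 0.27, where 10.8% of all genes were higher and 10.1% lower. They were Hk2, hexokinase 2 (0.86 ± 0.17, adjusted p = 5.11e-06), Ak4, a mitochondrial adenylate kinase (0.79 ± 0.20, adjusted p = 3.73e-04), Ldha, lactate dehydrogenase A (0.64 ± 0.21, adjusted p = 0.00476) and, lower, Pdk1, an inhibitor of pyruvate dehydrogenase (-0.41 ± 0.16, adjusted p = 0.026), in the authors' deposited table. Against single-targeted lines 6 of the 12 were higher and none lower (1 lower at an unadjusted p under 0.05, DESeq2), with a median of 0.43, against 0.00 over all genes tested, of which 4.37% were higher and 2.69% lower. Those of smallest adjusted p in the authors' deposited table were Ldha (1.17 ± 0.28, adjusted p = 4.77e-04), Pgk1 (0.87 ± 0.24, adjusted p = 0.00282) and Aldoa (1.05 ± 0.31, adjusted p = 0.00378), enzymes of glycolysis, which are uncertain where pseudogene copies share their reads. In single-targeted lines against wildtype Pdk1 alone was called, at -0.55 ± 0.19 in the authors' deposited table (adjusted p = 0.0163). At an unadjusted p under 0.05 (DESeq2), 5 of the 12 were lower in that comparison and 1 higher. Among these 5 were Aldoa (-0.52 ± 0.24, adjusted p = 0.0579) and Pgk1 (-0.50 ± 0.21, adjusted p = 0.051). Neither was called in dual-targeted lines against wildtype. With the clones alone against wildtype, 2 of the 12 were higher and 3 lower, with a median of 0.20. Over all genes 9.05% were higher and 10.3% lower there.

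Of 24 tested other targets, which span mitophagy, collagen modification, feedback and growth control, 3 rose and 8 fell in dual-targeted lines, beside 10.8% and 10.1% of all genes. Those named by adjusted p in the authors' deposited table were Zfp395 (-1.21 ± 0.33, adjusted p = 3.60e-04), Wsb1 (-0.59 ± 0.17, adjusted p = 0.00238), the collagen lysyl hydroxylase Plod1 (-0.68 ± 0.25, adjusted p = 0.00984) and Higd1a (0.57 ± 0.21, adjusted p = 0.0137). In single-targeted lines 2 were lower and none higher (1 higher at an unadjusted p under 0.05, DESeq2), namely Ndrg1 (-0.90 ± 0.29, adjusted p = 0.0072) and the collagen prolyl hydroxylase subunit P4ha1 (-0.77 ± 0.28, adjusted p = 0.0163), in the authors' deposited table. Between the mutant groups 1 of 23 tested was higher and 1 lower, beside 4.37% and 2.69% of all genes. These were Fam162a, higher (1.06 ± 0.32, adjusted p = 0.00498), and Vldlr, lower (-1.31 ± 0.55, adjusted p = 0.0215), in the authors' deposited table. Over the 50 tested genes of these 4 lists, 8 rose and 12 fell with 3 mutant alleles, and single-targeted lines had 0 higher and 4 lower (2 and 12 at an unadjusted p under 0.05, DESeq2). Over all genes 10.8% were higher and 10.1% lower in the former comparison, and 1.49% and 1.47% in the latter. Of the 12 lower genes, Zfp395, Bnip3l and Ero1l lie on chromosome 14, whose genes had a median of -0.25 in dual-targeted lines and -0.51 in the clones. Without chromosomes 8 and 14, 8 of 45 genes were higher and 9 lower, where 19.7% of all genes off those chromosomes were called (11.3% higher, 8.44% lower). In the clones against wildtype, 6 of the 50 genes were higher and 14 lower, where 9.05% of all genes were higher and 10.3% lower. Off chromosomes 8 and 14, 6 of the 45 were higher and 11 lower in the clones. Of all genes off those chromosomes, 9.49% were higher and 8.14% lower there.

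**Figure D4:**
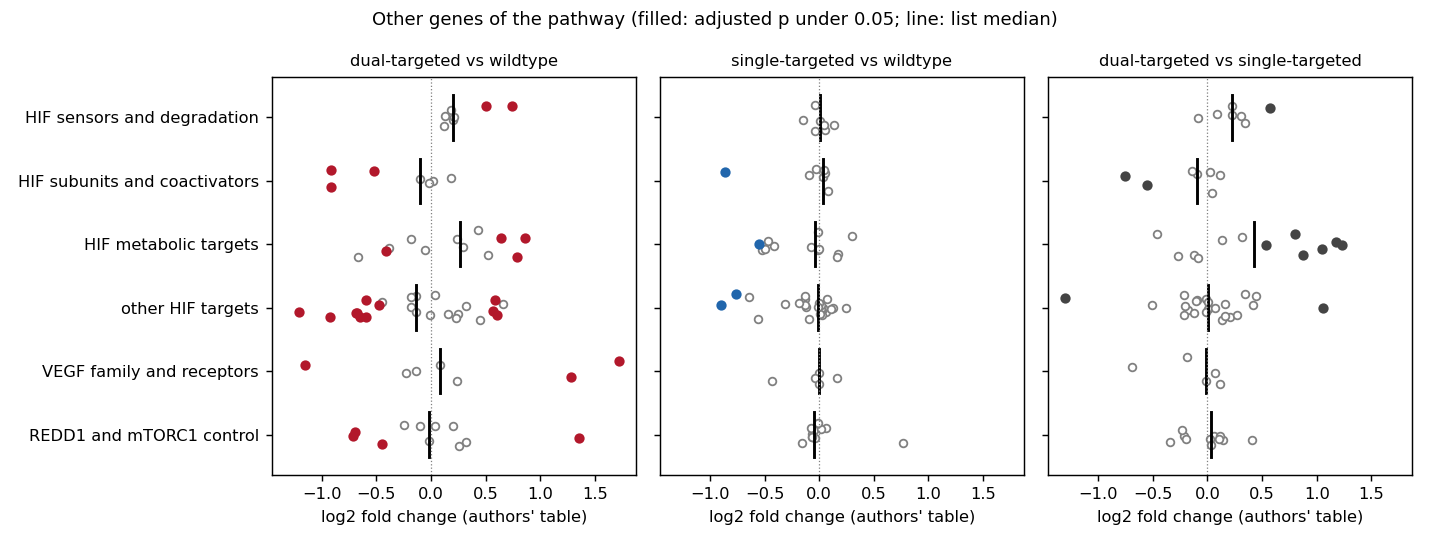
Log2 fold change (horizontal axis, authors' deposited tables) of the tested genes of 6 lists in 3 comparisons; filled points have an adjusted p under 0.05 and the black line is the list's median. Metabolic targets lie to the right in dual-targeted against single-targeted lines (median 0.43), and 3 of 7 subunits and coactivators lie to the left in dual-targeted lines against wildtype.

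Partners of Vegfa and Ddit4 were read from 2 further lists. Of 7 tested genes of the VEGF family and its receptors, Vegfb was lower in dual-targeted lines (-1.16 ± 0.25, adjusted p = 2.03e-05), and the receptor genes Kdr (1.73 ± 0.59, adjusted p = 0.00251) and Flt1 (1.28 ± 0.87, adjusted p = 0.0324) were higher, in the authors' deposited table. Kdr and Flt1 were sparsely read, with mean counts of 19.1 and 16.9 in the authors' deposited table. Of 3 endothelial markers Cdh5 had no row there, Tek was at 0.10 ± 0.28 (adjusted p = 0.764) and Pecam1, which stem cells also express, was called lower (adjusted p = 3.64e-06) in the authors' deposited table. Of 11 genes around REDD1 and mTORC1, 1 was higher and 3 fell in dual-targeted lines, and none was called in single-targeted lines (1 at an unadjusted p under 0.05, DESeq2). Over all genes 20.9% were called in dual-targeted lines, 10.1% as lower. The higher one was Ddit4l, the paralog of Ddit4 known as REDD2 (1.36 ± 0.31, adjusted p = 3.63e-05), and the lower ones were Tsc1, a restraint on mTORC1 (-0.70 ± 0.17, adjusted p = 2.30e-04), Sesn3 (-0.72 ± 0.25, adjusted p = 0.00626) and Deptor (-0.45 ± 0.17, adjusted p = 0.026), in the authors' deposited table.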

How the data were processed

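TT-seq libraries of E14 cells (3 wildtype, 2 single-targeted, 3 dual-targeted) were aligned and counted by the authors, whose tools STAR, SAMtools, featureCounts, DESeq2 and deepTools and builds mm10 and GRCm38.p6 are named, without versions, in the submitters' processing notes. Whether strand was used in counting is unknown. The files were 4 tables, each normalized separately, with 16498, 16255, 16149 and 16254 genes. The mean count is a signal column: by its name in the file headers it is the mean normalized count that the authors' tool gives for a gene. The log2 fold changes and SEs were deposited by the authors, and are read as shrunken because for 100% of called genes the fold was below what its p implies. The p-values and adjusted p-values are the authors' own, per the file headers, and empty ones stayed empty.

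Group means were solved from the 4 mean counts and the numbers of libraries, with table scales of 0.983, 1.06 and 0.957 that set the median gene of each group (mean count of 50 or more) to wildtype. Of 36 pairs of member and comparison, 35 had the same sign in rebuilt and deposited values; the exception is Egln1 between the mutant groups, near 0 in both. The length trend was a lowess fit. The code for rebuilding, adjustment and trend was run on simulated data. For rebuilding, these had no spread between libraries and were built with the scales and medians that the method assumes. That run checks the arithmetic only, and whether the assumption holds in these data was not tested. Positions came from GENCODE release 21 of the GRCm38 mouse series and promoters from RefSeq (GRCm38.p6), which matched all 9 genes. The members, lists and tests were chosen with earlier results of these data known, and the alternative background and the lists without chromosomes 8 and 14 were chosen after seeing the data. Named genes were all members, up to 4 called genes of each list by adjusted p, and the 3 genes nearest in pattern to each member called in dual-targeted lines, of which 3 members' are given. Gnpat, Sprtn, Rbm17, Egln2, Vhl, Bnip3l, Ero1l, Bhlhe40, Nrp2, Gm15283 and Gm37975 were named after their values were seen. Alternatives were a threshold of 0.01, other adjustments, other centrings and other scales. Scripts ran in Python 3.11.15 with pandas 2.3.3, statsmodels 0.14.6, numpy 2.4.6, matplotlib 3.10.9 and scipy 1.17.1.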

Additional observations from a re-analysis of the deposited data

Results flagged for a closer look

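Lines with 2 and with 3 mutant alleles were compared directly by the test of dual-targeted against single-targeted lines, and 4 of the 9 genes differed in it. Of all genes, 7.06% were called in that comparison (4.37% higher, 2.69% lower). The groups also differ in genotype and in line, with 1 library per line. The number of mutant alleles cannot be told apart from these. Vegfa had a log2 difference of -1.21 ± 0.27 (SE, adjusted p = 2.37e-04) in the authors' deposited table. Slc2a1 had 0.81 ± 0.29 (adjusted p = 0.014), Pfkfb3 0.98 ± 0.38 (adjusted p = 0.0163) and Kdm3a 0.68 ± 0.22 (adjusted p = 0.00849), from the authors' deposited table. For all 4 the deposited fold changes against wildtype had opposite signs in the 2 mutant groups, and none of the 4 was called in single-targeted lines.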

How the results depend on the processing

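At a threshold of 0.01 in place of 0.05, the called members fell from 6 to 3 in dual-targeted lines against wildtype, from 2 to 0 in single-targeted lines (DESeq2; 4 had an unadjusted p under 0.05), from 4 to 2 between the mutant groups and from 4 to 2 in the clones. The share of all genes called at 0.01 was not counted, so these drops have no background to be read beside. Adjusting over every gene with a p-value, or over genes of mean count 50 or more, left each of the 4 counts at 0.05 as it was. By the authors' adjusted p, 23.6% of genes of mean count 50 or more were called in dual-targeted lines and 3.32% in single-targeted lines against wildtype. The share was 7.77% between the mutant groups and 21.4% in the clones. Without the H3f3a WT/A line, which the authors' clones table leaves out, 4 members were called in place of 6, and Slc2a1 and Kdm3a were those lost. Of all genes, 19.3% were called there, in place of 20.9% with that line. Of 36 fold changes, taking off the median of all genes or the length trend moved 0 by more than 1 SE, and taking off the chromosome median moved 1, Egln1 in dual-targeted lines (-0.41). When the tables were not rescaled to each other, 14 of 36 rebuilt ratios moved by more than the SE of the deposited fold change (that of dual-targeted lines for the H3f3a WT/A line, as rebuilt ratios have no SE of their own), among them the H3f3a WT/A line for Egln3 (-2.95 against -1.77) and Kdm3a (0.09 against 0.48), so the levels of that line depend on the scales. No paired analysis was possible because the tables hold no values per library, and for the same reason no wildtype or single-targeted library could be left out. Depth per library is unknown and enters only through the authors' SEs.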

Other observations

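Some other HIF targets and partners had different levels in the 2 dual-targeted genotypes, which none of the 9 members showed to that degree. Bhlhe40, a repressor that HIF induces, had rebuilt means of 269 normalized counts in wildtype, 144 in single-targeted lines, 58.2 in the clones and 356 in the H3f3a WT/A line. In the authors' deposited table of the clones it was at -2.10 ± 0.29 (adjusted p = 8.33e-12). Nrp2, a coreceptor for VEGF, had rebuilt means of 550.5 in wildtype, 417 in single-targeted lines, 92.3 in the clones and 673 in the other line, with -2.46 ± 0.27 in the clones in the authors' deposited table (adjusted p listed as 0). Bnip3l, the paralog of Bnip3, had 467 in wildtype, 176 in the clones and 426 in the other line, and lies on chromosome 14, where the clones' median was -0.51. The difference between the 2 genotypes was not tested, since 1 of them has a single library.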
